A study of Mus musculus with 8 samples.

Results

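The neurotrophins are secreted proteins that bind receptors on the cell surface, and 7 genes of this system were followed in mouse esophageal epithelium: the ligands Ntf3, Ntf5 and Bdnf, and the receptors Ngfr, Ntrk2, Ntrk3 and Sort1. They are 7 of the 55276 gene symbols in the deposited count table. They were chosen by name, because Ntf3 had one of the largest falls of any gene in the cells that held most autophagic vesicles, so their differences between the sorted fractions are a description, and a call in the fit over all genes is no independent evidence for them. Cells came from the peeled epithelium of C57BL6 mice aged 14 to 15 weeks, with no genetic change or drug named. Cells that were negative for DAPI and positive for integrin beta-1 were sorted on Cyto-ID, a fluorescent stain of autophagic vesicles, into a dim fraction, Cyto-ID Low, and a bright fraction, Cyto-ID High. RNA of both was sequenced in bulk. There were 8 libraries, 4 per fraction, from 2 female animals (Female1, Female2) and 2 male animals (Male1, Male2) that each gave both fractions.

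Neurotrophins are made as longer precursors that proteases cut to the mature factor. The mature factors signal through the Trk receptor tyrosine kinases, with neurotrophin-3 preferring the receptor of Ntrk3, and BDNF and neurotrophin-4 that of Ntrk2. All of them also bind p75, the product of Ngfr, while uncut precursors bind p75 together with sortilin, the product of Sort1, which also carries proteins to lysosomes. Best known for the survival of sensory neurons, the family is also expressed in stratified epithelia, where p75 is found on basal keratinocytes.

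The libraries held 26285150 to 28599954 counts in Cyto-ID Low and 27486049 to 29301054 in Cyto-ID High. Levels are given as CPM, counts scaled to library size, by the trimmed mean of M values. Although the gate selected integrin beta-1, markers of the basal layer summed to 22032 to 26255 CPM in Low and 2882 to 4577 CPM in High, and 10 of 10 were lower in High. Suprabasal markers summed to 9857 to 27212 CPM in Low and 147410 to 247327 CPM in High, where 9 of 10 were higher (edgeR quasi-likelihood test, adjusted p under 0.05). Of all genes tested, 25.3% were lower and 23.4% higher. In bulk RNA, fewer cells of a type and less RNA per cell cannot be told apart.

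The sequences upstream of Ntf3 and Ngfr are shown because these are the ligand and the receptor that were lower in High by the most among the 7. RefSeq's table of promoter windows (GRCm38.p6) held 4 of the 7 genes, with 2 start sites for Ntf3. Bases that lie in an annotated exon are left out, which shortened the window of Ngfr. Both genes lie on the minus strand, the sequences run 5′ to 3′ toward the gene, and capitals mark the GC box GGGCGG. The Ntf3 stretch ends at the second start site and covers chr6:126164961-126165210, with 54% G and C. The Ngfr stretch covers chr11:95587736-95587948, with 70.9% G and C.
Ntf3: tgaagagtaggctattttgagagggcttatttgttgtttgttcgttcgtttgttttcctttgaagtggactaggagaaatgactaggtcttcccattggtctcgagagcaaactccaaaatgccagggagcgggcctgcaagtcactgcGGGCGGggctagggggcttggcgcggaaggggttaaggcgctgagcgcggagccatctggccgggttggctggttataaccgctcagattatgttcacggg
Ngfr: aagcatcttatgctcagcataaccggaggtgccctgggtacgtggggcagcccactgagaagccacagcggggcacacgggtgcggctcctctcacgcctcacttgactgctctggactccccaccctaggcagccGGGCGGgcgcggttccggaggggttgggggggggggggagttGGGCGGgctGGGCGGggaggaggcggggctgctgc
Both strands of the 250 bases before each start were searched, and each start of these genes had at least 1 GC box, which 32.7% of 32851 RefSeq windows of that length hold. There were 4 in the window of Ngfr, 3 of them in the stretch shown. The E-box CANNTG was found before each of the 3 starts (66.2% of all windows) and CCAAT only before the second start of Ntf3 (33.8%). None of the 3 windows held TATAAA (12.4% of all windows), the AP-1 site TGANTCA (6.75%), the cyclic AMP response element TGACGTCA (1.55%) or the p53-family element (7.13%). GC boxes can overlap each other in such a search, and a match is a run of letters, not a measured binding site.

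Among the ligands, transcripts of Ntf3, Ntf5 and Bdnf were all lower in Cyto-ID High, and by very different amounts. Ntf3 encodes neurotrophin-3 and spans chr6:126101412-126166910 on the minus strand (ENSMUSG00000049107.13, GRCm38). In Low, Female1 had 8.03 CPM, Female2 13.8, Male1 13.2 and Male2 12.7. In High, Female1 had 0.154 CPM, Female2 0.348, Male1 0.114 and Male2 0.669, which rests on 4, 8, 3 and 13 reads against 260 to 501 reads in the Low libraries. The fractions did not overlap, and the lowest Low library stood far above the highest High library.

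The mean level of Ntf3 was 11.9 ± 2.64 CPM in Low and 0.321 ± 0.253 CPM in High (SD, n = 4 each), 37.1 times higher in Low. The fitted log2 fold change of Ntf3 was −5.28 (SE 0.44). It was the second lowest of the 17344 genes tested, behind 4930456G14Rik at −6.57, a transcript with 55 counts over all 8 libraries. The next in order was Ccdc27 at −5.12. Within each animal the log2 CPM of Ntf3 differed between High and Low by −5.17 (Female1), −5.05 (Female2), −6.17 (Male1) and −4.11 (Male2). With so few reads in High, the size of this fold is the least precise among the ligands, and its direction was shared by 4 of 4 animals.

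Ntf5, the gene of neurotrophin-4, lies at chr7:45413695-45417179 on the plus strand (ENSMUSG00000074121.3). The Low libraries had 3.64 CPM (Female1), 7.12 (Female2), 4.54 (Male1) and 6.43 (Male2), and the High libraries 1.50, 1.13, 1.26 and 1.34 CPM in the same order. The High libraries lay close together, whereas the Low libraries spread, and no High library reached a Low one. The means of Ntf5 were 5.43 ± 1.62 CPM and 1.31 ± 0.156 CPM (SD, n = 4 each), with a log2 fold change of −2.05 (SE 0.28).

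Bdnf encodes brain-derived neurotrophic factor, the ligand that shares a preferred Trk receptor with neurotrophin-4, and lies at chr2:109674700-109727007 on the plus strand (ENSMUSG00000048482.14). Levels of Bdnf in Low were 6.58 CPM (Female1), 9.92 (Female2), 8.17 (Male1) and 10.3 (Male2), and in High 2.43, 7.62, 4.00 and 5.14 CPM in the same order. The fractions overlapped, because High Female2 was above Low Female1, yet High was the lower fraction in each of the 4 animals. The mean of Bdnf was 8.75 ± 1.72 CPM in Low and 4.80 ± 2.18 CPM in High (SD, n = 4 each), and the log2 fold change was −0.87 (SE 0.32). Scaled by total counts alone, the log2 fold change of Bdnf was −1.47 (SE 0.30), and with 1 library left out it ran from −1.30 (without High Female2) to −0.64 (without High Female1).

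**Figure D1:**
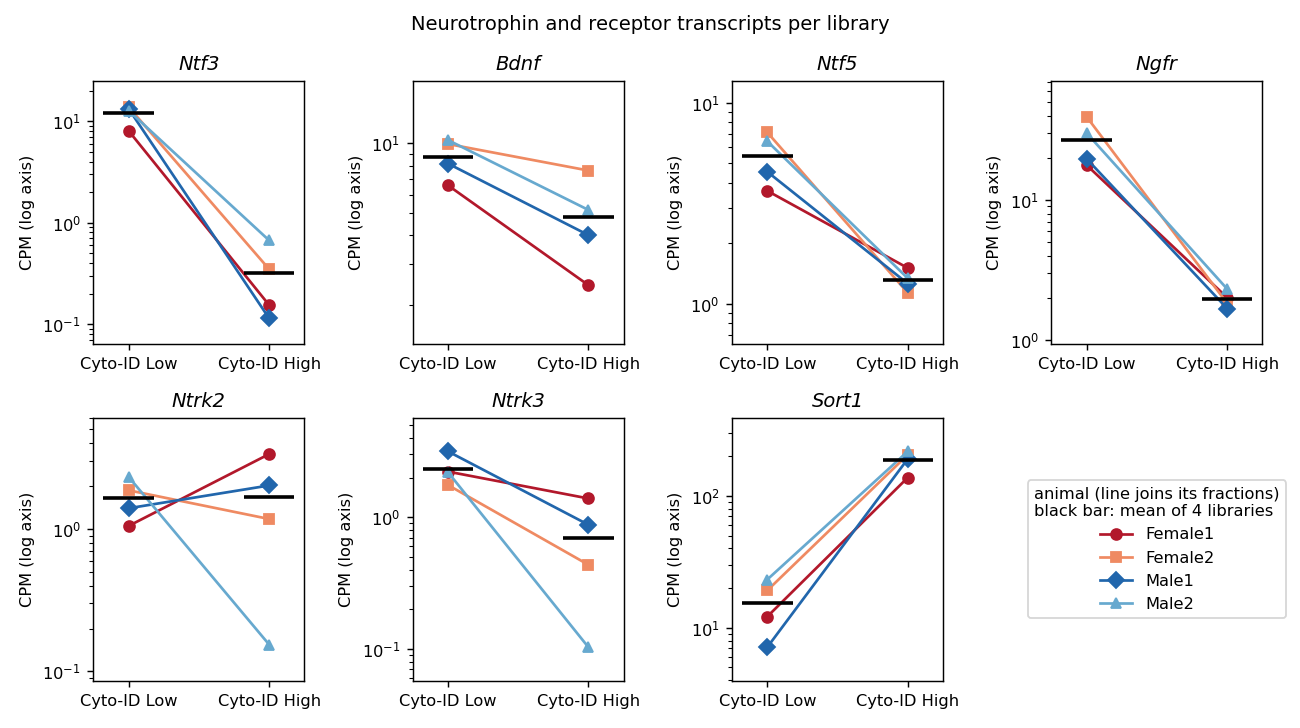
Levels of the 7 genes per library, in CPM on a log axis that differs between panels, for Cyto-ID Low (left) and Cyto-ID High (right). Lines join the fractions of 1 animal and black bars are the means of 4 libraries. Ntf3, Ntf5, Ngfr, Ntrk3 and Sort1 separate the fractions, Bdnf overlaps, and the lines of Ntrk2 cross.

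Among the receptors, Ngfr was much lower and Sort1 much higher in Cyto-ID High, and the Trk receptors were low in both fractions. Ngfr encodes p75, which binds every neurotrophin, and lies at chr11:95568818-95587735 on the minus strand (ENSMUSG00000000120.6). Levels of Ngfr in Low were 17.8 CPM (Female1), 39.4 (Female2), 19.7 (Male1) and 30.1 (Male2), and in High 2.01, 1.83, 1.68 and 2.32 CPM in the same order. As with Ntf5, the High libraries were nearly equal while the Low libraries spread, and the fractions did not overlap. The means of Ngfr were 26.8 ± 10.0 CPM and 1.96 ± 0.274 CPM (SD, n = 4 each), 13.7 times higher in Low, with a log2 fold change of −3.77 (SE 0.29).

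Sort1 encodes sortilin, the sorting receptor that binds uncut neurotrophin precursors at the surface, and lies at chr3:108284082-108361511 on the plus strand (ENSMUSG00000068747.14). In Low, Sort1 had 12.1 CPM (Female1), 19.2 (Female2), 7.11 (Male1) and 23.2 (Male2), and in High 138, 205, 191 and 217 CPM in the same order. The lowest High library was above the highest Low library by a wide margin. The mean of Sort1 was 15.4 ± 7.17 CPM in Low and 188 ± 35.1 CPM in High (SD, n = 4 each), 12.2 times higher in High, with a log2 fold change of 3.60 (SE 0.36). It was the only one of the 7 that was higher in High beyond its spread, and the difference was widest in Male1, whose Low level was lowest.

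Ntrk3 encodes TrkC, the preferred receptor of neurotrophin-3, and lies at chr7:78175959-78738012 on the minus strand (ENSMUSG00000059146.12). Low libraries had 2.22 CPM (Female1), 1.76 (Female2), 3.17 (Male1) and 2.20 (Male2), and High libraries 1.39, 0.435, 0.877 and 0.103 CPM in the same order. No High library reached a Low one, but the High libraries spread widely, from 36 reads in Female1 to 2 reads in Male2. The mean of Ntrk3 was 2.34 ± 0.593 CPM in Low and 0.701 ± 0.558 CPM in High (SD, n = 4 each), with a log2 fold change of −1.72 (SE 0.57). Without both Male2 libraries, left out after the data were seen, the log2 fold change was −1.31 (SE 0.44).

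Ntrk2 encodes TrkB, the preferred receptor of BDNF and neurotrophin-4, and lies at chr13:58806569-59133970 on the plus strand (ENSMUSG00000055254.15). In Low, Ntrk2 had 1.05 CPM (Female1), 1.87 (Female2), 1.40 (Male1) and 2.32 (Male2), and in High 3.36, 1.18, 2.02 and 0.154 CPM in the same order. The fractions overlapped and the animals went different ways, with High above Low in Female1 and Male1 and below it in Female2 and Male2. The log2 fold change of Ntrk2 was −0.04 (SE 0.64), from −3.42 to 1.61 within animals, and without both Male2 libraries it was 0.65 (SE 0.43). Both Ntrk2 and Ntrk3 have truncated forms without a kinase domain, and counts per gene do not tell these from the full receptors.

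The spread of both Trk receptors over the High libraries ran beside that of markers of other cells. In High, Ntrk2 and Ntrk3 were highest in Female1, then Male1, then Female2, and lowest in Male2. The fibroblast list summed in that order to 505, 360, 169 and 56.2 CPM, and was 396 to 560 CPM in Low. The muscle list summed to 67.6, 45.3, 23.1 and 5.09 CPM in the same order, against 44.5 to 69.3 CPM in Low. Lists of leukocytes, endothelium, neurons and Merkel or neuroendocrine cells had the same order in High, as did the number of genes with a count above 0, from 27395 in Female1 to 22208 in Male2. The Schwann cell and glia list did not, with 459 CPM in Female1, 453 in Male1, 404 in Female2 and 505 in Male2. Whether these cells bear on the Trk receptor levels was not tested.

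Cells of nerves are the best known source of p75 and Trk receptors, so their markers are given beside the members. The Schwann cell and glia list had 10 genes and summed to 271 to 339 CPM in Low and 404 to 505 CPM in High, but Erbb3 and Mbp, which epithelia also express, made up 91.4% to 99.4% of that sum. The Schwann cell factor Sox10 had 8 to 19 reads in Low and 0 to 16 reads in High. Of the neuron list, Elavl4 and Prph had at most 5 reads in any library, and the list summed to 8.88 to 12.7 CPM in Low and 5.40 to 24.0 CPM in High. The neuroendocrine or Merkel cell list summed to 6.24 to 9.51 CPM in Low and 1.39 to 8.34 CPM in High, with 2 of 6 tested genes lower beside 25.3% of all genes tested, and its defining factor Atoh1 had 0 reads in all 8 libraries. The part of other cells in the levels of the members was not tested.

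**Figure D2:**
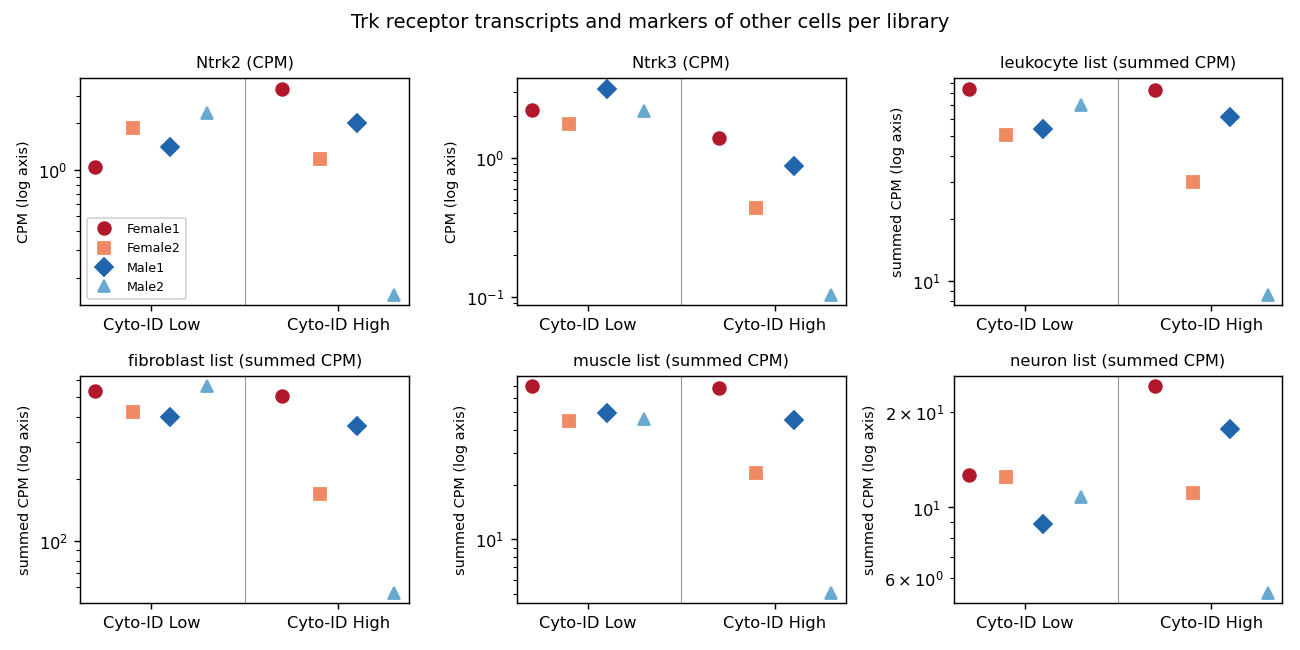
Ntrk2 and Ntrk3 in CPM and the summed CPM of the leukocyte, fibroblast, muscle and neuron lists, each point being 1 library and every axis a log axis. In Cyto-ID High, each panel runs down from Female1 over Male1 and Female2 to Male2.

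All 7 genes were abundant enough to be fitted. In the fit over all genes, 6 of the 7 passed an adjusted p of 0.05 (edgeR quasi-likelihood test), 5 lower in High and Sort1 higher, with Ntrk2 the exception. Of all 17344 genes tested, 48.7% passed the same threshold, 25.3% lower and 23.4% higher. The fractions did not overlap for 5 of the 7, as for 48.6% of all genes tested. Since the 7 were chosen from this contrast, nothing is read from their count. When 1 of the 8 libraries was dropped at a time, Bdnf passed in 2 of 8 fits, those without Low Female1 or High Female2, and missed the threshold with RLE scaling and without both Male2 libraries. Ntrk3 passed in 3 of 8, those without High Female1, High Male1 or High Male2, and missed it without both Female2 libraries. The median log2 fold change of all genes tested was −0.09.

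**Figure D3:**
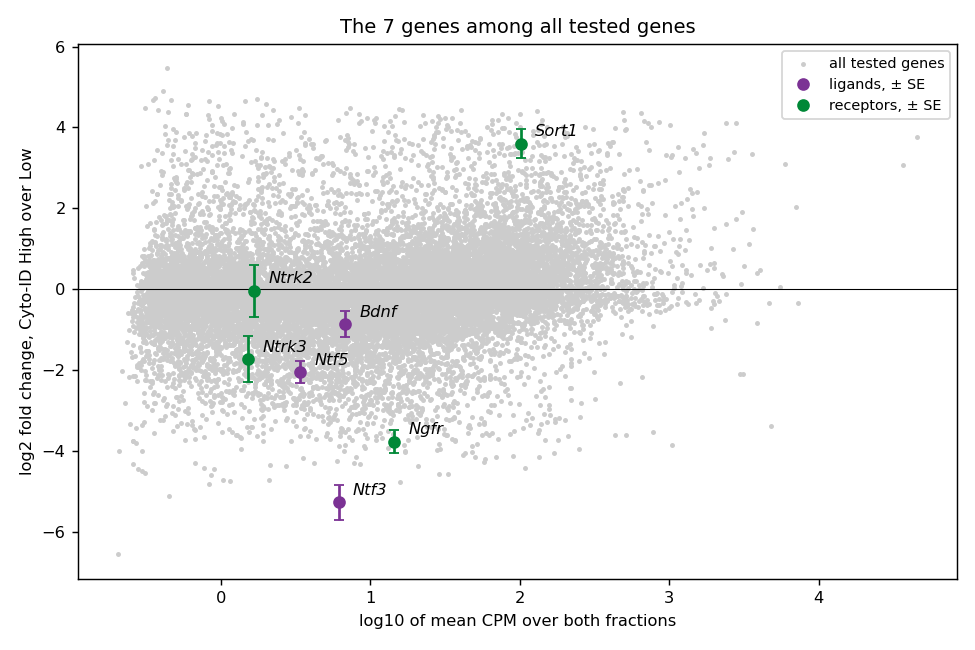
Log2 fold change of Cyto-ID High over Low for each of the 17344 genes tested against the log10 of mean CPM, with the 7 genes marked. Ntf3 lies at the lower edge at −5.28, Ngfr at −3.77, Sort1 near the upper edge at 3.60 and Ntrk2 at −0.04.

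Levels of different genes were compared as CPM per kilobase of merged exon length (GENCODE M21), a scale on which long genes do not appear more abundant. In Cyto-ID Low the order of mean levels was Ngfr at 7.77 ± 2.91 CPM per kb, Ntf3 at 6.96 ± 1.54, Ntf5 at 2.05 ± 0.610, Sort1 at 2.03 ± 0.947, Bdnf at 1.41 ± 0.277, Ntrk2 at 0.0861 ± 0.0288 and Ntrk3 at 0.0775 ± 0.0197 (SD, n = 4). Ngfr and Ntf3 did not differ beyond their spread between libraries, nor did Ntf5, Sort1 and Bdnf, nor the Trk receptors. Within libraries, however, Ntf5 was above Bdnf in each of the 4 in Low. Ngfr was first in 3 of the 4 Low libraries and Ntf3 in the other, that of Male1. With the longest transcript as the length, Ntf3 was also first in Low Female1, at 5.41 against 5.16 CPM per kb for Ngfr, and its mean of 8.05 in Low was above that of Ngfr. In Cyto-ID High, Sort1 came first in each of the 4 libraries at 24.8 ± 4.63 CPM per kb, and every other member was below 2 CPM per kb. Bdnf at 0.772 ± 0.351, Ngfr at 0.568 ± 0.0795 and Ntf5 at 0.493 ± 0.0589 CPM per kb lay within one another's spread. Ntf3 at 0.188 ± 0.148, Ntrk2 at 0.0869 ± 0.0703 and Ntrk3 at 0.0232 ± 0.0185 CPM per kb were the lowest of the 7 in High, and the spreads of Ntf3 and Ntrk2 overlapped.

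The make-up of the ligand and receptor transcripts therefore differed between the fractions, again as a description of genes chosen from this contrast. Of the summed CPM per kb of the 3 ligands, Ntf3 made up 66.9 ± 3.38% in Low and 12.0 ± 7.46% in High. Bdnf made up 13.6 ± 1.24% in Low and 51.4 ± 12.0% in High, and Ntf5 19.5 ± 2.62% and 36.6 ± 13.6%. The sum of the 3 ligands was 10.4 ± 2.29 CPM per kb in Low and 1.45 ± 0.396 CPM per kb in High, so the larger share of Bdnf in High went with a lower level of Bdnf.

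The receptors exchanged places. Ngfr made up 78.1 ± 5.07% of the summed CPM per kb of the 4 receptors in Low and 2.29 ± 0.550% in High, and Sort1 20.1 ± 5.31% and 97.2 ± 0.965%. The ratio of Sort1 to Ngfr, the pair that binds uncut precursors together, was 0.262 ± 0.0845 in Low and 44.2 ± 9.57 in High. Ntrk2 was 0.885 ± 0.176% of the receptor sum in Low and 0.392 ± 0.382% in High, and Ntrk3 0.906 ± 0.501% and 0.105 ± 0.101% (SD, n = 4 for each value here). The receptor sum was 9.97 ± 3.68 CPM per kb in Low and 25.5 ± 4.56 CPM per kb in High. With the longest transcript in place of merged exons, the mean per kb was 0.190 for Ntrk2 in Low and 0.192 in High, and 0.119 and 0.0356 for Ntrk3, so the Trk receptors kept the last places among the receptors.

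**Figure D4:**
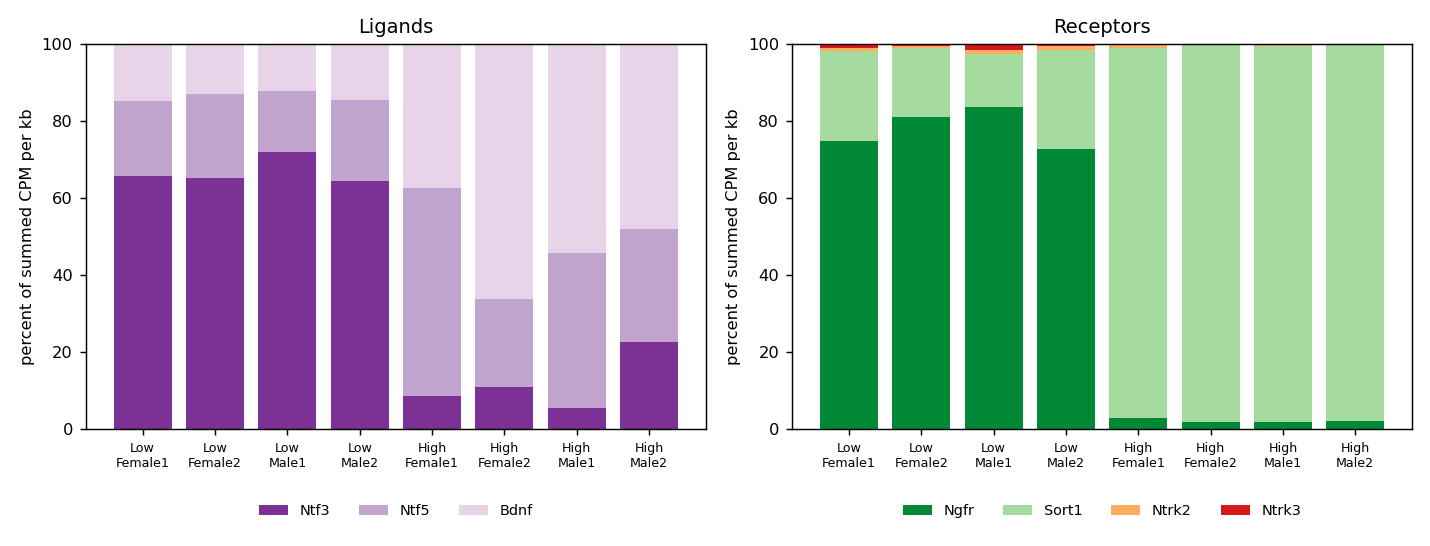
Share of each gene in the summed CPM per kb of the 3 ligands (left) and of the 4 receptors (right), in percent, 1 bar per library. Ntf3 takes over 60% of the ligand bars in Low and under 25% in High, and Ngfr gives way to Sort1 between Low and High.

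The choice of the 7 genes did not use the sex of the animals, so sex was tested, after adding up the Low and High counts of each animal, 2 males against 2 females. None of the 7 differed by sex in edgeR's quasi-likelihood test, 0 of 7 at an unadjusted p under 0.05 and 0 of 7 in DESeq2, where 4 of 19687 genes (0.0203%) passed in edgeR and 284 had an unadjusted p under 0.05. The male minus female difference in log2 was 0.22 (SE 0.32) for Ntf3, 0.06 (SE 0.34) for Bdnf and −0.01 (SE 0.36) for Ntf5. Among the receptors it was −0.21 (SE 0.39) for Ngfr, 0.18 (SE 0.20) for Sort1, −0.23 (SE 0.34) for Ntrk2 and 0.17 (SE 0.38) for Ntrk3. These errors leave room for differences of a size that 4 animals could not show.

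The difference between the fractions was also tested for a dependence on sex, as the interaction of sex and fraction over all 8 libraries. In edgeR's quasi-likelihood test the threshold was reached by 0 of 17344 genes (0%). An unadjusted p under 0.05 was found for 19 of the 17344 genes, none of them among the 7, and in DESeq2 the respective numbers were 0 and 5. With so few of all genes below it, finding none among the 7 says nothing about a dependence on sex. That unadjusted count rested on single libraries: without High Male1 it was 1197 genes with 2 of the 7 among them, without Low Male2 221 genes with 1 of the 7, and 49 to 190 genes with none of the 7 when another library was dropped, while 0 genes passed after adjustment in any of these fits. The interaction in log2 was 0.31 (SE 0.93) for Ntf3, −0.30 (SE 0.69) for Bdnf, −0.05 (SE 0.59) for Ntf5, 0.25 (SE 0.58) for Ngfr and 0.30 (SE 0.69) for Sort1. It was −1.37 (SE 1.30) for Ntrk2 and −1.28 (SE 1.13) for Ntrk3, the least precise of the 7. Without High Male1 these were −4.19 for Ntrk2 (adjusted p = 0.395) and −3.54 for Ntrk3 (adjusted p = 0.482), and without High Female1 −0.43 and −0.21, by edgeR.

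Around the members, 5 lists of genes of the pathway were read in the same fit, each named gene being among the 4 largest changes of its list at a mean of 1 CPM or more and of the same sign in all 4 animals. All p-values here are adjusted over all genes by edgeR's quasi-likelihood test, and levels are means ± SD of 4 libraries per fraction. Beside each list stand all genes tested, of which 23.4% rose, 25.3% fell and 48.7% did either, and a list's count near these shares is no result about the list. Of 14 relatives of the members and proteases that cut their precursors, 9 were tested, 2 rose and 3 fell in High, with a median log2 fold change of −0.03. The precursor-cutting convertases went different ways. Pcsk5 fell from 15.1 ± 1.27 CPM in Low to 1.37 ± 0.373 in High (log2 −3.47, SE 0.21, adjusted p = 1.3e-05). Pcsk6 rose from 26.6 ± 11.4 to 258 ± 51.1 CPM (log2 3.27, SE 0.31, adjusted p = 3.2e-05). Furin, a convertase of the secretory pathway, fell from 122 ± 21.9 to 77.9 ± 18.4 CPM (log2 −0.65, SE 0.18, adjusted p = 0.0124). Sorcs2, a receptor of the sortilin family, fell from 31.9 ± 4.78 to 15.2 ± 4.65 CPM (log2 −1.09, SE 0.19, adjusted p = 0.00109).

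Genes that act below the Trk receptors were mixed. Of 33 adaptors and effectors, 32 were tested, 7 rose and 10 fell, near the 48.7% of all genes, with a median log2 fold change of 0.03. Gab1, a docking protein for kinase signalling, rose from 46.9 ± 8.57 to 193 ± 53.0 CPM (adjusted p = 7.6e-05). Rps6ka1, a kinase below the MAP kinases, fell from 60.7 ± 8.26 to 13.1 ± 3.18 CPM (adjusted p = 2.1e-05). The Trk adaptors Frs3 and Sh2b2 also fell, by 2.79 and 2.14 on the log2 scale, from low levels of 1.77 ± 0.345 and 3.44 ± 0.544 CPM in Low (adjusted p = 0.000244 and 0.0012).

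Of 22 partners and effectors of p75, 21 were tested, of which 7 rose and 5 fell, with a median of 0.23. Maged1 (NRAGE), which binds p75 inside the cell, fell from 73.6 ± 11.3 to 16.7 ± 4.13 CPM (adjusted p = 2.9e-05). Nradd, a gene related in sequence to Ngfr, fell from 14.0 ± 2.53 to 3.45 ± 1.18 CPM (adjusted p = 0.00019). Ripk2, an adaptor kinase toward NF-kB, rose from 9.96 ± 2.03 to 53.0 ± 11.6 CPM (adjusted p = 2.3e-05). These genes of the list went both ways, 2 lower like Ngfr and 1 higher like Sort1.

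Of 17 immediate-early and MAP kinase response genes, all 17 were tested, 5 rose and 4 fell, with a median of 0.14. Such genes also respond to the dissociation of a tissue, which both fractions went through. Dusp5, a phosphatase of MAP kinases, rose from 55.7 ± 9.33 to 265 ± 78.8 CPM (adjusted p = 4.6e-05), and Egr3 from 123 ± 39.8 to 396 ± 119 CPM (adjusted p = 0.000145). The MAP kinase inhibitors Spred2 and Spred1 fell, Spred2 from 114 ± 18.9 to 9.60 ± 4.26 CPM (adjusted p = 1.4e-05) and Spred1 from 46.6 ± 7.99 to 14.3 ± 2.31 CPM (adjusted p = 3.5e-05).

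Of 19 genes of other neurotrophic factors and their receptors, 16 were tested, 2 rose and 7 fell, beside 23.4% and 25.3% over all genes, with a median of −0.88 beside −0.09. Gdnf, a survival factor for motor and enteric neurons, fell from 14.8 ± 1.59 to 0.752 ± 0.0831 CPM, a log2 change of −4.29 (SE 0.19, adjusted p = 1.3e-05). Ptn, which encodes pleiotrophin, fell from 83.4 ± 11.9 to 7.16 ± 2.88 CPM (adjusted p = 1.4e-05). The cytokine gene Lif and its receptor Lifr fell as well, with log2 changes of −2.08 (adjusted p = 0.000565) and −2.62 (adjusted p = 1.3e-05). Scaled by total counts alone, which lowered the median of all genes from −0.09 to −0.64, the 5 lists in the order given had 1, 5, 4, 3 and 1 genes higher and 4, 19, 10, 7 and 10 lower. Over all 17344 genes that scaling called 2194 higher and 8514 lower, so most calls were lower in general.

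**Figure D5:**
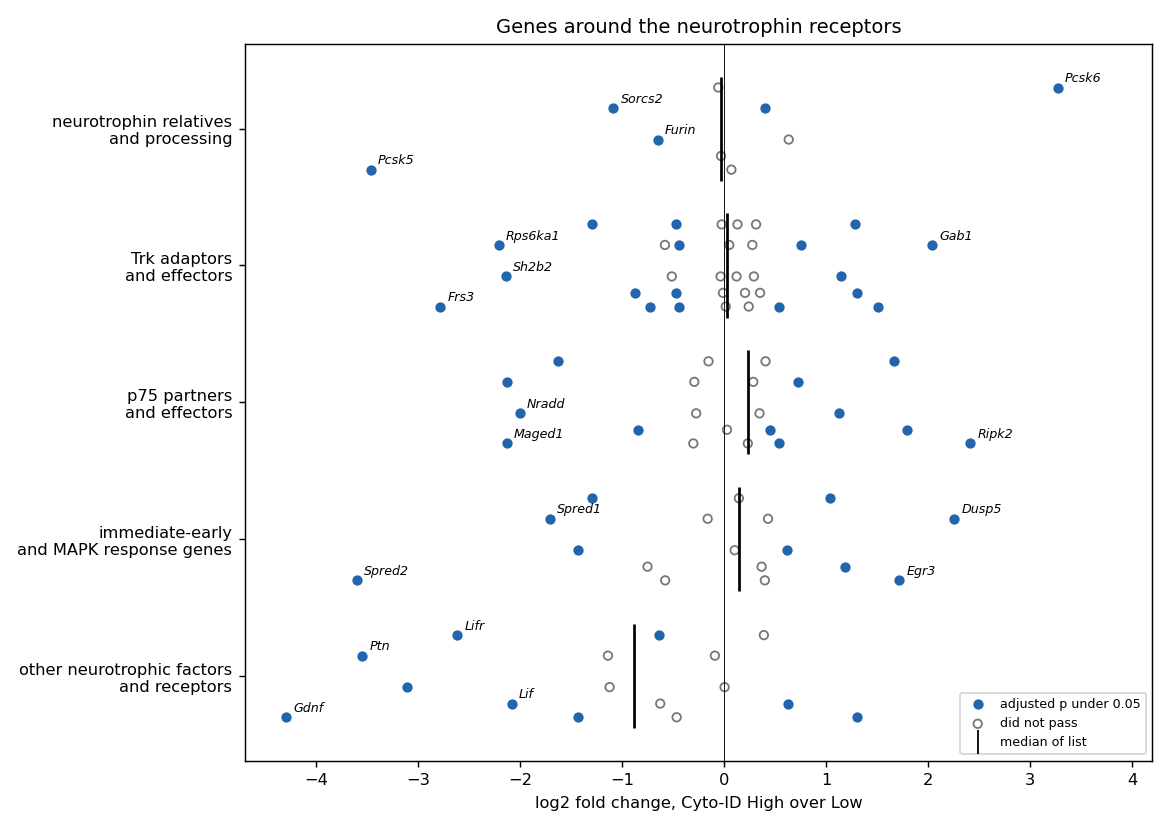
Log2 fold change of Cyto-ID High over Low for each tested gene of the 5 pathway lists, 1 row per list and 1 point per gene. The list of other neurotrophic factors has the lowest median, −0.88, and the others lie between −0.03 and 0.23.

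Genes with levels most like those of a member were found as the highest Pearson correlations of log2 CPM over the 8 libraries, a description that the difference between the fractions dominates. The 5 most like Ntf3 were C1qbp, Coro2a, Irf1, Mepce and Rps6ka1, with r from 0.998 to 0.999, and 1010 of 12362 genes compared had an r above 0.95. Rps6ka1 is also on the list of genes below the Trk receptors. For Ngfr the closest were Wnt3a, a ligand of Wnt signalling, Dhtkd1 and Ift57, each with r = 0.997. For Sort1 they were Acsl1, which activates fatty acids for lipid metabolism, at r = 0.9996, and Rhou and Fads6 at r = 0.998.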

How the data were processed

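RNA was sequenced in bulk from both sorted fractions, and the authors deposited 1 table of raw read counts per gene symbol for 8 libraries. Per the submitters' processing notes STAR 2.7.3, DESeq2 and GRCm38 were used, while the counting tool, its annotation and its use of strand are not given in the sources used here. Columns were matched to samples by animal and fraction, and the shared names gave 4 pairs. Deviations from the fraction means correlated across genes at 0.43 (Female1), 0.32 (Female2), −0.02 (Male1) and 0.28 (Male2), and between animals at −0.37 to 0.35, the highest for High Male1 with Low Female1, so the pair of Male1 rests on its name.

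Tests used edgeR 4.0.16 under R 4.3.3 (filterByExpr by fraction, TMM, glmQLFit and glmQLFTest with sex as covariate, two-sided, Benjamini-Hochberg over all 17344 genes, threshold 0.05). Log2 CPM used a prior count of 2. Each standard error is the fold change over the root of its F statistic. Labels do not tell more of the animals than their names, and p-values measure the spread between these 4 per fraction. Libraries of a fraction differed beyond sampling noise (chi-square per degree of freedom at least 17.7 in 12 pairs). The members, lists and the rule for named genes were chosen with earlier results of these data known. That rule took, per list, the 4 largest absolute log2 fold changes that passed the threshold, averaged 1 CPM or more and had 1 sign in all 4 animals. Some genes the rule named are not reported here. For likeness it took the 5 highest correlations with Ntf3 and 3 each with Ngfr and Sort1, also from 1 CPM, without predicted genes. Alternatives were RLE and total-count scaling, no filter, at least 10 counts in every library, DESeq2 1.42.0, no covariate, the animal as block, each library left out, and, for sex, each fraction alone. The fits were also run on simulated counts, and the outcome is not given here. An antisense transcript that overlaps Bdnf or Sort1 had at most 2 reads in any library.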

Additional observations from a re-analysis of the deposited data

How the results depend on the processing

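Where they could be fitted, 6 of the 7 genes kept their direction between the fractions in every alternative, and Ntrk2 ran from −0.56 to 0.65. At least 10 counts in every library left no value for Ntf3, Ntrk2 and Ntrk3. Over the alternatives 4 to 6 of the 7 were called, and scaling by total counts moved the log2 fold change of Ntf3 to −5.87. The number of genes that differed was 7279 to 10708 over the alternatives and 7269 to 8106 with 1 library left out. A replicate block for the animal gave 9336, and it changed the call of none of the 7 genes and of none of the 19 named genes of the lists. The 19 named genes of the lists kept their call and direction in 321 of 321 refits. They had been chosen for large changes that passed the threshold in these same libraries, which makes that outcome likely in advance.

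The 4 genes that differed by sex were 0 in High alone (edgeR, 72 at an unadjusted p under 0.05), 1 in Low alone, 15 without a filter, 9 in DESeq2 and 6 to 48 with 1 animal left out. Without Female2, 1 of the 7 and 1184 of all 20793 genes had an unadjusted p under 0.05. The sign of small sex differences turned. In High alone Bdnf had −0.13, Ngfr 0.020 and Ntrk3 −0.90, and in Low alone Ntf5 had 0.0079, Ntrk2 0.33 and Sort1 −0.058. Ntf5 had 0.032 without a filter and 0.021 in DESeq2. With 1 animal left out, Ntf3 ran from −0.13 to 0.76, Bdnf from −0.29 to 0.61, Ntf5 from −0.33 to 0.47, Ngfr from −0.65 to 0.52, Ntrk2 from −0.40 to 0.0092 and Ntrk3 from −0.14 to 0.53. The interaction with 1 library left out ran from −1.34 to 1.17 for Ntf3, −0.91 to 0.75 for Bdnf, −0.75 to 0.32 for Ntf5, −0.58 to 0.68 for Ngfr, −0.40 to 1.37 for Sort1, −4.19 to −0.43 for Ntrk2 and −3.54 to −0.21 for Ntrk3. The causes were not tested. A group left with 1 animal is assumed to vary like the other. Depth limits Ntf3, Ntrk2 and Ntrk3 most, with as few as 3, 3 and 2 reads in a High library.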
